A study of Mus musculus with 12 samples.

Results

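The secreted antagonists of Wnt signaling were followed in the mouse osteosarcoma lines Dunn and LM8: Sfrp1, Sfrp2, Frzb (also called Sfrp3), Sfrp4, Sfrp5, Dkk1, Dkk2, Dkk3 and Wif1. The rule took the named genes of this family, uses no measured value, and matched each gene through the transcript accession of its array probes. The members were nevertheless chosen with earlier results of these data known. The 10 names of the family gave 9 genes with 1 probe each, of 20140 genes and 39429 probes measured. Dunn cells are a mouse osteosarcoma line of low metastatic potential, and LM8 cells are a metastatic line derived from Dunn by in vivo selection. Each line was grown serially from an early passage (passage 25 in Dunn, passage 24 in LM8) to a late passage (passage 86 in Dunn, passage 91 in LM8). All 4 groups were grown in the same serum-containing medium, with no transgene or drug, and per the methods were thawed and passaged again before RNA isolation. Each group was measured in 3 cultures described as independent, on 12 one-color arrays in all. A group is a single cell line at a single passage, so differences between the lines cannot be told apart from differences between these particular stocks.

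Wnt proteins are secreted ligands that bind Frizzled receptors and the coreceptors Lrp5 and Lrp6, and in the canonical pathway this stabilizes β-catenin, which activates target genes together with Tcf and Lef factors. Secreted antagonists act outside the cell. The Sfrp proteins carry a Frizzled-like cysteine-rich domain and bind Wnt ligands, Wif1 binds Wnt ligands through a domain of its own, and Dkk1 and Dkk2 bind Lrp5 and Lrp6. Dkk3 is a divergent member of the Dkk family that is not a typical antagonist of these coreceptors. In bone, Wnt signaling promotes osteoblast formation, and several of these antagonists are made by cells of the osteoblast lineage.

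The signals are given as log2 values relative to the 75th percentile of the same array, so 0 is the level of that percentile. The level of each probe depends on its own hybridization, and therefore levels are compared between arrays and not between genes. The 75th percentile of the signal was 253 to 522 units on the early Dunn arrays, 609 to 840 on late Dunn, 788 to 1148 on early LM8 and 1033 to 1699 on late LM8, and 39.1% to 59.7% of probes were well above background by the scanner software. With this scaling, the median difference over all probes was not 0 but -0.34 for late versus early Dunn, -0.21 for late versus early LM8, and -0.87 and -0.69 for LM8 versus Dunn at early and late passage. The early Dunn array of slide 1 had a median local background of 87 units against 22.5 to 34 on the others, and the late Dunn array of that slide had correlations down to 0.919 with its replicates. Each slide held 1 array of each group at the same position, so position and group cannot be told apart. Of 12 osteoblast markers with a probe, 11 were well above background on most usable spots in early Dunn (all but Phex) and 12 in each of the other groups. The spot of Col1a2 was flagged on 2 of the 3 early Dunn arrays and bright on the other. None of 4 epithelial markers was. Across the groups, 2 to 4 of 5 chondrocyte markers, 1 of 4 adipocyte markers, 1 to 3 of 5 macrophage or osteoclast markers and 1 or 2 of 4 endothelial markers were well above background.

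Of the 9 antagonist genes, 6 have a promoter in the RefSeq table used here (mouse build GRCm38.p6). The 250 bases before the annotated start are shown for 4 of them, with CpG dinucleotides in capitals: Sfrp2, which was well above background on all arrays, Frzb, which differed between the lines, Wif1, whose Dunn arrays lay far apart, and Dkk2, which was not well above background on any array.
Sfrp2, chr3:83766071-83766320, plus strand: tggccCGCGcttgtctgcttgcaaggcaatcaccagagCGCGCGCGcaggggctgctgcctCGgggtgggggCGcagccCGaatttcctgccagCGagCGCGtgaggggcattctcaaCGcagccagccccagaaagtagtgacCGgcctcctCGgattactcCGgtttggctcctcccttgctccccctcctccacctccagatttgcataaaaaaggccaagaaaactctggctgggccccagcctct
Frzb, chr2:80447397-80447646, minus strand: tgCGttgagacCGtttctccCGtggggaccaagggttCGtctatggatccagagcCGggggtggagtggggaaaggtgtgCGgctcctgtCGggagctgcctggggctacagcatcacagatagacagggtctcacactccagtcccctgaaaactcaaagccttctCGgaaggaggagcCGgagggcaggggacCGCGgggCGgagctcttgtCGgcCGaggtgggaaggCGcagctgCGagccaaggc
Wif1, chr10:121033754-121034003, plus strand: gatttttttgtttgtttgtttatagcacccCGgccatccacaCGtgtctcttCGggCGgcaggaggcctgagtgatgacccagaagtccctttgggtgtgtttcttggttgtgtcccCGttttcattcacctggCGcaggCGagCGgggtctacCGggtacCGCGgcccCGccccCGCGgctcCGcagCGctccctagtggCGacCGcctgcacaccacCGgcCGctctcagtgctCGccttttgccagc
Dkk2, chr3:132085042-132085291, plus strand: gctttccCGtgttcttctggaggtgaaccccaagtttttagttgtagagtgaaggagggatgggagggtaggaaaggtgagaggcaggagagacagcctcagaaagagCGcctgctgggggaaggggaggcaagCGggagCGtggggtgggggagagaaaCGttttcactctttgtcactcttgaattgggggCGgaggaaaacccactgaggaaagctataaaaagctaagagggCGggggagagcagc
The Wif1 stretch held 21 CpG dinucleotides, a number reached by 16.3% of the 32851 promoters in the table. Sfrp2 and Frzb each held 16, a number reached by 25.4% of promoters. Dkk2 held 7, near the median of 6 over all promoters. Sfrp5 held 13 and Dkk1 held 6. The core of the Tcf/Lef motif, CTTTGA or CTTTGT on either strand, was present 3 times before Dkk1 and 1 time each before Frzb and Dkk2, and in 27.6% of all promoters. The Runx core TGTGGT on either strand was present 1 time each before Sfrp5 and Dkk1, and in 14.0% of all promoters. TATAAA on the transcribed orientation was present before Dkk1 and Dkk2, and in 7.59% of all promoters. These matches describe letters in a window and were not linked to any measurement of binding or methylation.

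Of the 9 antagonists, 6 were well above background in at least 1 group, and 3 (Sfrp1, Sfrp5 and Dkk2) were not on any of the 12 arrays. Sfrp2, Sfrp4, Dkk1 and Dkk3 were well above background on all 12 arrays. Wif1 was well above background on each of the 10 arrays with a usable spot. Frzb was well above background on all 6 LM8 arrays and on none of the 6 Dunn arrays. The antagonists therefore fell into a set measured in both lines, 1 gene measured in LM8 only, and a set not measured in either.

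**Figure D1:**
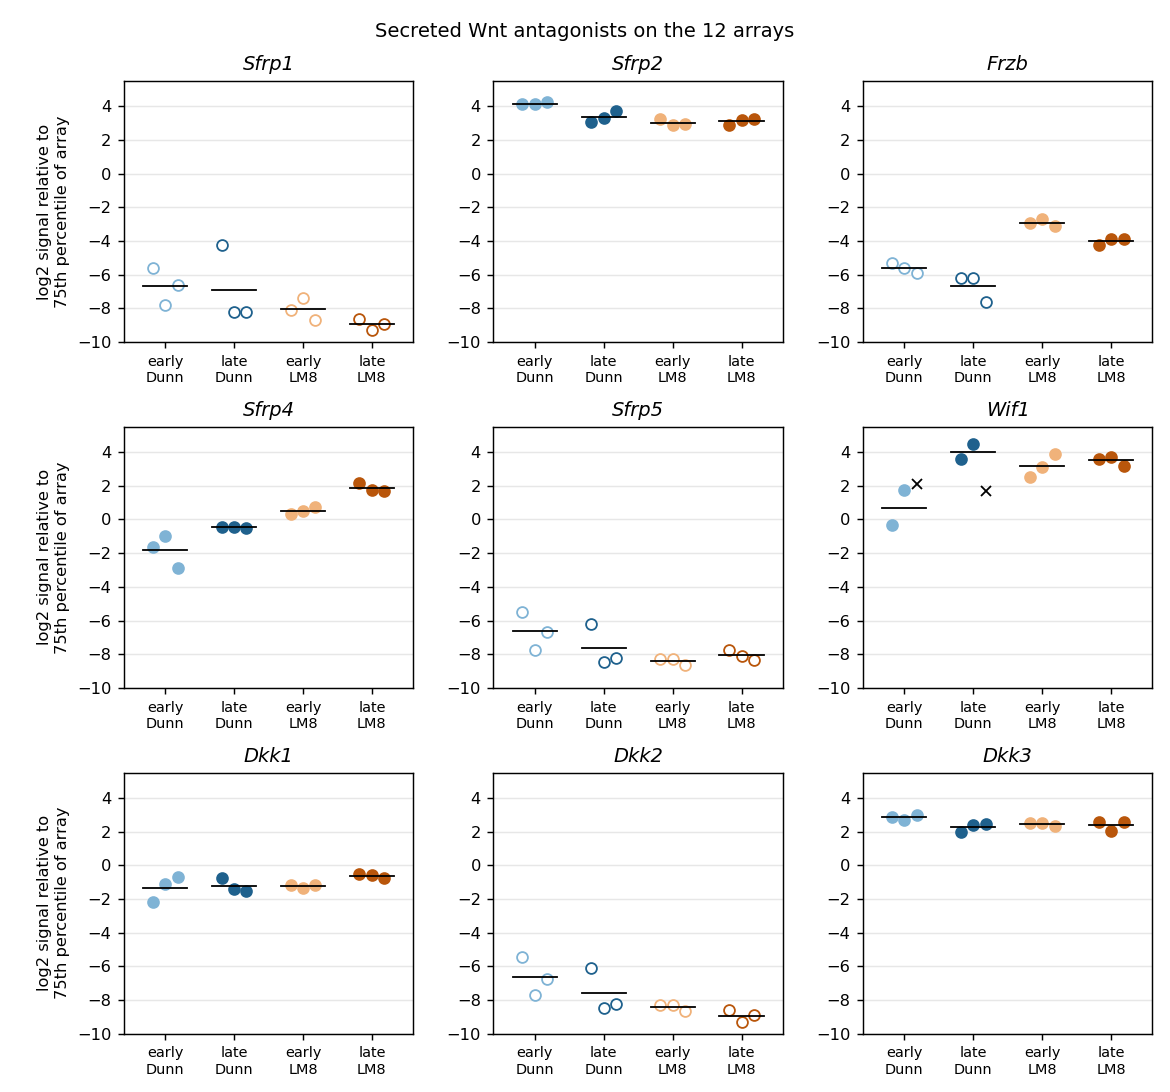
Log2 signal of each antagonist relative to the 75th percentile of its array (vertical axis) in the 4 groups (horizontal axis), 1 point per array. Filled points are well above background, open points are not, crosses are the 2 Wif1 spots flagged by the scanner software and left out, and lines are group means; the Sfrp4 points step up from early Dunn to late LM8, and the Frzb points are filled in LM8 only.

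A gene passed when its limma p-value, adjusted by the Benjamini-Hochberg method over all probes, was under 0.05 and its probe was well above background on most arrays of the higher group. In late versus early Dunn, 0 of 9 antagonists passed, against 0.00497% of all genes tested, where 3 antagonists and 2260 probes had an unadjusted p under 0.05. The methods' t-test also gave 0. In late versus early LM8, 1 of 9 passed (Sfrp4, higher), against 2.54% of all genes. In LM8 versus Dunn, 1 of 9 passed at early passage (Frzb, higher), against 3.8% of all genes, and 1 of 9 at late passage (Sfrp4, higher), against 3.71%. With both passages pooled, 3 of 9 passed (Frzb and Sfrp4 higher, Sfrp2 lower), against 23.5% of all genes. The pooled comparison treats early and late cultures of a line as samples of 1 group and shares its arrays with the comparisons at each passage. At the level used in the methods, over 2-fold at an unadjusted p under 0.05, with the same demand on background, there were 2 antagonists in late versus early Dunn (Sfrp4 and Wif1, 4.42% of all genes) and 2 in late versus early LM8 (Sfrp4 and Frzb, 4.72%). At that level there were 4 in LM8 versus Dunn at early passage (Sfrp2, Frzb, Sfrp4 and Wif1, 13.6% of all genes) and 2 at late passage (Frzb and Sfrp4, 11%). Sfrp5 and Dkk2 were over 2-fold apart at early passage but below background in both lines, and were not counted. Over the antagonists well above background in both groups, the median log2 difference was 0.10 in late versus early Dunn (5 genes) and 0.19 in late versus early LM8 (6 genes), beside -0.26 and -0.07 over all genes of that kind. In LM8 versus Dunn, the median over 5 antagonists, without Frzb, was 0.11 at early and 0.13 at late passage, beside -0.43 and -0.23 over all genes of that kind.

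**Figure D2:**
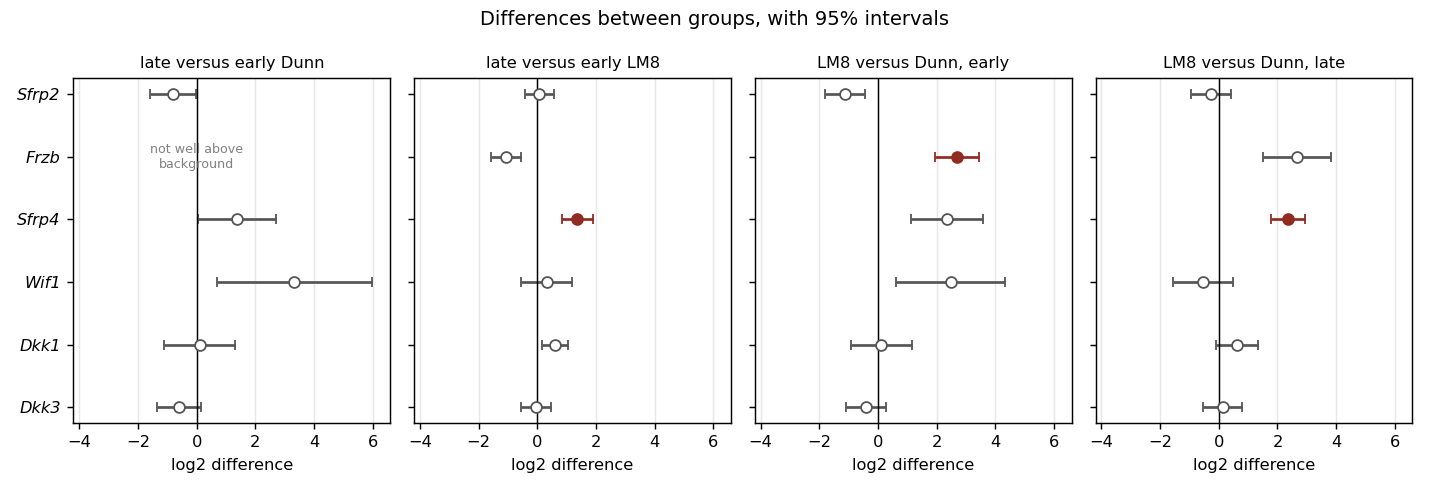
Log2 difference (horizontal axis) of 6 antagonists in each of 4 comparisons, with 95% intervals from limma and no value for Frzb in late versus early Dunn; filled red points passed at an adjusted p under 0.05. Only Sfrp4 in late versus early LM8 and at late passage, and Frzb at early passage, are filled.

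Sfrp4, a Wnt-binding Sfrp protein known from bone and phosphate metabolism, had group values that followed each other in order from early Dunn to late LM8. Its log2 signals were -1.60, -1.01 and -2.89 on the early Dunn arrays and -0.45, -0.46 and -0.48 on the late Dunn arrays. They were 0.31, 0.52 and 0.73 in early LM8 and 2.19, 1.76 and 1.72 in late LM8. The groups did not overlap: every late Dunn array lay above every early Dunn array, every early LM8 array above every Dunn array, and every late LM8 array above all others. Sfrp4 was up-regulated in late versus early LM8 by 1.37 on the log2 scale (SE 0.23, 2.58-fold, adjusted p = 0.0326 by limma). That call was lost with the slide as a block (adjusted p = 0.119), without scaling (0.0560), with a floor on dim signals (0.0796), with 1 fit over all arrays (0.325), with the methods' t-test (0.105), without slide 1 (0.232) and without any of 5 of the 6 arrays (0.0925 to 0.121), all but early LM8 array 3 (0.0458). The difference was 1.88, 1.24 and 0.99 on the 3 slides. In late versus early Dunn the difference was also 1.37 (SE 0.54) but did not pass (adjusted p = 0.766), and it was 0.84 without early Dunn array 3, which lay lowest. The test of whether this difference varied between the lines gave -0.000624 (adjusted p = 1.00), with a 95% interval of -1.30 to 1.30 that leaves room for a difference of over 2-fold between them.

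The Sfrp4 signal was higher in LM8 than in Dunn cells at late passage and with passages pooled. At late passage the difference was 2.35 (SE 0.23, 5.11-fold, adjusted p = 0.00921), and it was 2.64, 2.22 and 2.20 on the 3 slides. This call was lost with the slide as a block (adjusted p = 0.0953) and without late Dunn array 3 (0.0530) or late LM8 array 1, 2 or 3 (0.0533, 0.0770 and 0.0673). At early passage the difference was also 2.35 (SE 0.52) and did not pass (adjusted p = 0.0589), with 1.92, 1.53 and 3.62 on the slides. It passed under 6 other settings (adjusted p from 0.00692 to 0.0486). Pooled over passages, Sfrp4 was 2.35 higher in LM8 (SE 0.48, adjusted p = 0.00658), a call that stood with the slide as a block, under all other settings tried (adjusted p from 0.000473 to 0.0385) and without any 1 of the 12 arrays (0.00629 to 0.0197).

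Frzb, a Wnt-binding Sfrp protein first known from cartilage, was well above background on LM8 arrays only. In early LM8 its log2 signals were -2.95, -2.67 and -3.13, and in late LM8 they were -4.22, -3.90 and -3.87. On the Dunn arrays the readings were -5.30, -5.62 and -5.88 at early and -6.18, -6.18 and -7.61 at late passage, none of them well above background. LM8 and Dunn arrays did not overlap at either passage. Detection differed on slide 1, where the dimmest signal counted as well above background was -3.39 in early and -4.19 in late Dunn. On the LM8 arrays of slide 1 it was -6.45 at early and -6.37 at late passage. The late LM8 reading of Frzb on slide 1 (-4.22) lay below the dimmest such signal of late Dunn array 1. Because the Dunn values are only upper limits, the difference is given as a bound. Each Dunn array entered with its dimmest signal well above background or its reading of Frzb itself, whichever was higher. The bounds average over the arrays, and the late arrays of slide 1 alone give none. By these bounds Frzb was at least 3.0-fold higher in LM8 than in Dunn at early and at least 2.75-fold higher at late passage. With passages pooled the bound was 2.87-fold. The limma tests are on the fitted differences, which use the Dunn readings, and do not test the bounds. These differences were 2.69 at early passage (adjusted p = 0.00845) and 2.67 with passages pooled (adjusted p = 0.00101). At late passage the fitted difference was 2.66 (adjusted p = 0.0522), which did not pass, although 8 other settings gave 0.00227 to 0.0478. The reading of Frzb on early Dunn array 2 (-5.62) lay above its dimmest signal counted as well above background (-5.79). The bounds are therefore approximate. The early call was lost with the slide as a block (adjusted p = 0.0566) and without early LM8 array 1, 2 or 3 (0.0674, 0.0641 and 0.0538). The pooled call stood with the slide as a block and without any 1 array. The normexp background correction started from the median signal and added an offset of 50 to every corrected signal. With it, the fitted difference between lines turned to -0.40 at early passage and -0.13 with passages pooled, and was 0.14 at late passage. Within LM8, the difference of late versus early was -1.08 (SE 0.22, adjusted p = 0.0681), which did not pass, with the 3 late arrays below the 3 early arrays and values of -1.27, -1.23 and -0.75 on the slides. It passed under 3 other settings (adjusted p from 0.0181 to 0.0380). The Dunn readings allow no such comparison.

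Sfrp2, a Wnt-binding Sfrp protein produced by many mesenchymal cells, had log2 signals of 4.11, 4.11 and 4.27 in early Dunn and 3.08, 3.28 and 3.74 in late Dunn. It had 3.24, 2.90 and 2.96 in early LM8 and 2.92, 3.16 and 3.24 in late LM8. The early Dunn arrays lay above all others, and the remaining 3 groups overlapped each other. LM8 versus Dunn differed by -1.13 at early passage (SE 0.29, adjusted p = 0.0738, and 0.0156 to 0.0380 under 5 other settings) and by -0.26 at late passage (SE 0.27, adjusted p = 0.482). Late versus early differed by -0.80 in Dunn (SE 0.31, adjusted p = 0.766) and by 0.07 in LM8 (SE 0.20, adjusted p = 0.865, 95% interval -0.41 to 0.55). With passages pooled, Sfrp2 was lower in LM8 by a fitted difference of -0.70 (SE 0.23, adjusted p = 0.0336), although late Dunn and LM8 arrays overlapped. That call was lost with quantile normalization (adjusted p = 0.0721), with scaling on bright probes (0.186), with normexp (0.0578), without slide 1 (0.0947) and without any 1 of 8 arrays (0.0573 to 0.0676), namely each early Dunn array, each late LM8 array and early LM8 arrays 2 and 3. Without scaling the difference was 0.49 in the other direction, and its adjusted p was 0.235. In the pooled comparison the median difference was -0.80 over all probes and -0.30 over measurable genes.

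Sfrp1 and Sfrp5, the remaining Sfrp genes, were not well above background on any array. Their readings lay between -9.29 and -4.21 for Sfrp1 and between -8.65 and -5.50 for Sfrp5, and no difference between groups is given for values at this level. The same holds for Dkk2, with readings between -9.30 and -5.46. Absence of signal refers to 1 probe per gene and does not show that the transcripts were absent.

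Wif1, the Wnt inhibitory factor with a Wnt-binding domain, had a wide range, from -0.34 to 4.45. Its log2 signals were -0.34 and 1.75 on 2 early Dunn arrays and 3.61 and 4.45 on 2 late Dunn arrays. In early LM8 they were 2.54, 3.10 and 3.91, and in late LM8 3.62, 3.70 and 3.20. Early Dunn lay below the 3 other groups, which overlapped. The spot on array 3 of each Dunn group had been flagged as uneven by the scanner software and was left out, so each Dunn group had 2 arrays for Wif1. Those spots read 2.08 in early Dunn and 1.70 in late Dunn, and with them the 2 Dunn groups overlapped. Late versus early Dunn differed by 3.33 (SE 0.92, 10.0-fold, adjusted p = 0.766), and by 2.09 with the flagged spots kept, so the value did not pass in either case. LM8 versus Dunn at early passage differed by 2.48 (SE 0.75, adjusted p = 0.0738), by 2.02 with the flagged spots and by 1.43 without early Dunn array 1. It passed under 3 other settings (adjusted p from 0.0350 to 0.0494). At late passage the difference was -0.53 (SE 0.39, adjusted p = 0.359), and it turned to 0.25 with the flagged spots. Late versus early LM8 differed by 0.32 (SE 0.37, adjusted p = 0.639, 95% interval -0.56 to 1.20).

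Dkk1, the inhibitor that binds Lrp5 and Lrp6, had log2 signals of -2.17, -1.13 and -0.71 in early Dunn and -0.77, -1.43 and -1.50 in late Dunn. In LM8 it had -1.15, -1.37 and -1.16 at early and -0.54, -0.56 and -0.74 at late passage. The late LM8 arrays lay above the early LM8 and the late Dunn arrays, while early Dunn overlapped every other group. Late versus early LM8 differed by 0.61 (SE 0.19, adjusted p = 0.218) and LM8 versus Dunn at late passage by 0.62 (SE 0.28, adjusted p = 0.269), and neither passed. Late versus early Dunn differed by 0.10 (SE 0.49, 95% interval -1.11 to 1.32), and LM8 versus Dunn at early passage by 0.11 (SE 0.43, 95% interval -0.92 to 1.15).

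Dkk3 had log2 signals of 2.86, 2.69 and 3.01 in early Dunn and 1.98, 2.39 and 2.43 in late Dunn. In LM8 it had 2.49, 2.49 and 2.32 at early and 2.58, 2.06 and 2.55 at late passage. The early Dunn arrays lay above the rest, and the other 3 groups overlapped. Late versus early Dunn differed by -0.59 (SE 0.30, adjusted p = 0.766) and LM8 versus Dunn at early passage by -0.42 (SE 0.29, adjusted p = 0.280). Late versus early LM8 differed by -0.04 (SE 0.22, 95% interval -0.56 to 0.48), and LM8 versus Dunn at late passage by 0.13 (SE 0.27, 95% interval -0.54 to 0.80). Without scaling, LM8 versus Dunn pooled over passages was 1.04 (adjusted p = 0.0173), against -0.15 as scaled (adjusted p = 0.565).

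A test of whether the passage difference itself varied between the lines passed for 0 of 9 antagonists, against 0.611% of all genes. In that test 2 antagonists and 2169 probes had an unadjusted p under 0.05, and the methods' t-test gave 0. Wif1 had the largest value of this kind, -3.01 on the log2 scale (SE 0.93, adjusted p = 0.502), and Sfrp2 had 0.86 (SE 0.33, adjusted p = 0.735). At the level of the methods, Wif1 was the only antagonist past it, against 4.98% of all genes. Kept with its flagged spots, Wif1 had -1.77. With a floor on dim signals, Frzb passed this test (-1.06, adjusted p = 0.0239), where its Dunn readings were set to the floor.

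The other genes of the pathway were followed by lists of their roles. Among 11 other Wnt inhibitors, secreted or membrane-bound, 10 had a probe and 7 were well above background in at least 1 group. In late versus early LM8, Cer1 rose by 2.02 (adjusted p = 0.00369) and Apcdd1, a membrane-bound Wnt inhibitor, by 2.07 (adjusted p = 0.00638), while Dkk4, a Dkk protein, was at least 2.92-fold lower (adjusted p = 0.0152). The means in early LM8 were low for Cer1 (-5.57) and Dkk4 (-5.15). With normexp the Cer1 difference shrank to 0.79. The adjusted p of Dkk4 belongs to its fitted difference of -3.24. That difference shrank to -0.30 with the floor on dim signals and to -0.85 with normexp. Apcdd1 was also higher in LM8 than in Dunn, by 2.71 at early (adjusted p = 0.0120) and by 3.32 at late passage (adjusted p = 0.00376). Its group means of -1.79, -0.33, 0.92 and 2.99 from early Dunn to late LM8 had the same order as those of Sfrp4. Igfbp4, a binding protein of insulin-like growth factors, was lower in LM8 at late passage by a difference of -1.93 (adjusted p = 0.0279). No gene of any list passed in late versus early Dunn, where 0.00497% of all genes did.

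Of 19 Wnt ligands, 10 were well above background in at least 1 group. In LM8 versus Dunn, 2 ligands were higher and 1 lower at early passage, against 3.8% of all genes passing. At late passage 2 were higher, against 3.71%. Wnt1 was higher in LM8 by 1.90 at early (adjusted p = 0.0315) and 2.33 at late passage (adjusted p = 0.00940). Wnt11 was higher at early passage by 1.46 (adjusted p = 0.0464), although its direction turned with normexp (-0.54), and Wnt4 was lower there by a difference of -1.73 (adjusted p = 0.0376). Wnt8b was higher at late passage by 3.51 (adjusted p = 0.0393), with 1 late Dunn array well above background. Of 17 receptors and coreceptors, 12 were well above background in at least 1 group. The receptor Fzd8 fell by 1.82 in late versus early LM8 (adjusted p = 0.00492) and Fzd7 was higher in LM8 at late passage by 1.53 (adjusted p = 0.0341). Lrp6, a coreceptor bound by Dkk1, differed by 0.11 in late versus early LM8 (adjusted p = 0.851). In LM8 versus Dunn it differed by -0.64 at early passage (adjusted p = 0.218), -0.17 at late passage (adjusted p = 0.715) and -0.40 pooled (adjusted p = 0.175). Lrp5, the other coreceptor bound by Dkk1, was lower in LM8 by a difference of -0.69 with passages pooled (adjusted p = 0.0307). In the pooled comparison 23.5% of all genes passed, and the median difference was -0.80 over all probes and -0.30 over measurable genes. Of the receptors and coreceptors, 2 were higher and 5 lower there. Lrp5 did not pass at early (-0.95, adjusted p = 0.0738) or late passage alone (-0.43, adjusted p = 0.304). Kremen1, a Dkk receptor, was higher in LM8 by 2.41 with passages pooled (adjusted p = 0.0175), with 1 early Dunn array well above background. Kremen1 did not pass at either passage alone (adjusted p = 0.0797 and 0.126). Lrp5, Lrp6 and Kremen1 are named for their role as partners of Dkk1, after their values were seen. Their pooled differences were not tried under the other settings.

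Among 7 R-spondins and Lgr receptors, which amplify Wnt signaling, 3 were well above background in at least 1 group. Rspo3 was at least 49.5-fold lower in LM8 than in Dunn at early passage (adjusted p = 0.00190) and at least 31.7-fold lower at late passage (adjusted p = 0.00852). The adjusted p-values belong to the fitted Rspo3 differences of -6.51 and -5.94 on the log2 scale and do not test the bounds. These bounds hold for the scaling used here, and with normexp the fitted Rspo3 differences were -3.19 and -2.67. It was well above background on all 6 Dunn arrays and on none of the 6 LM8 arrays, the opposite of Frzb. Of 12 transcriptional readouts of the canonical pathway, 11 were well above background in at least 1 group. In LM8 versus Dunn, 2 were higher and 1 lower at early passage, against 3.8% of all genes passing. At late passage 1 was higher and 2 lower, against 3.71%. Lef1, a transcription factor of the pathway and itself a target, was at least 6.65-fold lower in LM8 at early (adjusted p = 0.00281) and at least 27.8-fold lower at late passage (adjusted p = 0.00135). Here too the adjusted p-values belong to the fitted differences, which were -4.48 at early and -6.91 at late passage. With other treatments of the signal the Lef1 difference shrank to -1.76 at early passage (floor) and -2.70 at late passage (normexp), below the size of the bounds. Tnfrsf19 was higher in LM8 by 3.27 at early (adjusted p = 0.00463) and 2.70 at late passage (adjusted p = 0.00477). Twist1 was higher by 2.65 at early passage (adjusted p = 0.0400), with 1 early Dunn array well above background. The Twist1 difference shrank to 0.27 with normexp. Myc was lower at late passage by a difference of -1.48 (adjusted p = 0.0266). Rnf43, a feedback inhibitor that removes Frizzled receptors, fell by 2.48 in late versus early LM8 (adjusted p = 0.00143). Of these 22 calls on list genes, 7 stood with the slide as a block: Cer1, Fzd8 and Rnf43 in late versus early LM8, Rspo3 and Tnfrsf19 at early passage, and Lef1 at both. The others had an adjusted p from 0.0556 to 0.148 with the block. Apart from Wnt11, each kept its direction under the 5 other treatments of the signal, but sizes moved. With normexp, Cer1 was 0.79, Apcdd1 1.99 at early passage, Wnt1 0.95 at early passage, Wnt8b 1.17 and Tnfrsf19 2.06 at early passage. Without scaling, Wnt4 was -0.24, Igfbp4 -1.04 and Myc -0.59.

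The genes whose signals followed an antagonist most closely over the 12 arrays were named by Pearson correlation. The candidates were 11281 genes well above background in at least 1 group and with a usable spot on every array compared. For Sfrp4 they were Gpr37 (r = 0.966), Rhpn2 (0.953) and Dusp14 (0.945), and for Frzb they were Slc22a17 (0.972), Ccdc116 (0.967) and Ptgfrn (0.965). For Sfrp2 they were Myl1 (0.971), Il4ra (0.960) and Dusp4 (0.955). For Dkk1 they were Itgav (0.890), Efcab12 (0.848) and Arrb1 (0.842), and for Dkk3 they were Coq6 (0.922), Ifngr1 (0.912) and Mm2pr (0.903). For Wif1, over the 10 arrays with a usable spot and 11953 genes, they were Rpf2 (0.945), AW549877 (0.944) and Rprd1a (0.943). The arrays share the 4 groups and the 3 slides, so these values describe a likeness of pattern.

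The differences between the lines were set out under each treatment of the signal, because LM8 arrays were brighter than Dunn arrays. Sfrp4 stayed between 1.44 and 3.84 at early passage and between 2.21 and 3.24 at late passage. Without scaling, all 6 measurable antagonists were above 0 in LM8 versus Dunn at both passages. The directions of Sfrp2 and Dkk3, of Dkk1 at early passage and of Wif1 at late passage depended on the setting. Dkk1 at late passage stayed between 0.46 and 1.52, and the direction of Frzb turned only with normexp.

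**Figure D3:**
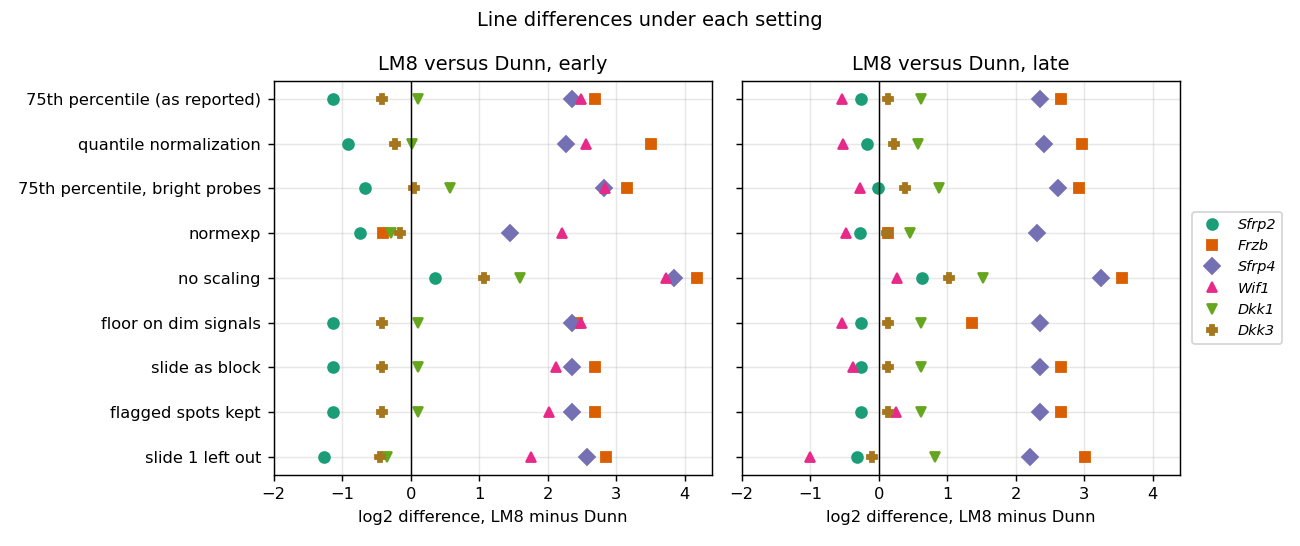
Log2 difference of LM8 minus Dunn (horizontal axis) at early and late passage for the 6 measurable antagonists, under 9 settings (vertical axis). Purple diamonds (Sfrp4) stay to the right of 0 in every row, orange squares (Frzb) move close to or below 0 with normexp, and all symbols lie to the right of 0 without scaling.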

How the data were processed

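RNA of 3 cultures per group was measured by the authors on 12 one-color Agilent arrays, 1 per culture. Per the labels and the file headers, the deposited intensity values are processed signals of Agilent Feature Extraction 10.7.3, which had subtracted the local background, and the quality flags used here are other columns of the same deposited files. Probes were matched through their transcript accession to a RefSeq gene table (GRCm38.p6), which gave 26575 of 39429 probes (67.4%) a gene. Flagged outlier spots were left out and spots of a probe were averaged. Signals were taken as log2 minus the 75th percentile of each array, and compared with limma 3.58.1 (R 4.3.3) in the groups of each comparison, with Benjamini-Hochberg adjustment over all probes. A gene was represented by its brightest probe, and a flagged spot counted as not above background in the calls. The pipeline was tested on simulated data.

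The named genes were all antagonists, from each other list the up to 3 largest rises and falls that passed in the 4 comparisons of 2 groups, and the 3 genes most alike each antagonist. The members and lists were chosen with earlier results of these data known. Replicates are separate cultures per the series' description, which says no more of their separation. The replicate number is the slide number in the file headers, and deviations from group means correlated between arrays of a slide in all 12 pairs (0.103 to 0.510 over 19634 probes), so the number pairs the arrays. The blocked fit is given where it changed a call. The number of arrays, 3 per group, limits the precision. Alternatives were quantile normalization, scaling on bright probes, normexp, no scaling, a floor, other probe rules, 1 fit over all arrays, a slide block, the methods' t-test and leaving out each array. The mean signal column named for normexp was not in the files used here, so the median signal was used, with an offset of 50. Keeping flagged spots and leaving out slide 1 were added after seeing the data. Figures were drawn with matplotlib 3.10.9.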

Additional observations from a re-analysis of the deposited data

How the results depend on the processing

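With 3 arrays per group, calls near the threshold moved with the setting; the causes were not tested. Summed over the 5 comparisons of groups, which share arrays, there were 6 calls on 3 antagonists (Sfrp4, Frzb and Sfrp2), with 10 calls when only probes well above background were tested and 3 with the replicate block (slide). The blocked fit left 0 in late versus early LM8, 0 in LM8 versus Dunn at early and 0 at late passage, and changed no call in the pooled comparison. Late versus early LM8 had 2 passing with quantile normalization, with bright probes only or with the mean of a gene's probes, and 0 without scaling, with the floor, with 1 fit over all arrays, with the methods' t-test and without slide 1. LM8 versus Dunn at early passage had 3 with quantile normalization, without scaling and with bright probes only, 2 with normexp, the floor, the mean of probes and the t-test, and 4 with 1 fit. At late passage it had 2 with quantile normalization, scaling on bright probes, no scaling, the floor, bright probes only, the mean of probes, 1 fit and without slide 1. Pooled, normexp left 1, and the number passing ran from 1 to 4 over the settings. The pooled Sfrp2 call was also lost with quantile normalization, with scaling on bright probes, without scaling and without slide 1. The interaction had 1 with the floor.

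At the level of the methods, late versus early Dunn had 1 with normexp, flagged spots kept or slide 1 left out, and 0 with the floor or the t-test. Late versus early LM8 had 1 with normexp and without slide 1. LM8 versus Dunn had 2 at early, 1 at late passage and 1 pooled with normexp, and 4 at late passage and 4 pooled without scaling. The interaction had 2 with the floor or without slide 1 and 0 with flagged spots kept.

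Differences that turned sign did so as follows. Without scaling, Sfrp2 was 0.18 in late versus early Dunn, 0.36 and 0.63 in LM8 versus Dunn at early and late passage and 0.49 pooled. Dkk3 was 0.39 in Dunn, 0.35 in LM8, 1.07 at early passage, 1.04 pooled and -0.0443 in the interaction, Wif1 was 0.27 at late passage and Dkk1 -0.0806 in the interaction. With scaling on bright probes, Dkk3 was 0.0394 in LM8, 0.0466 at early passage and 0.22 pooled. With normexp, Dkk1 was -0.26 in Dunn and -0.28 at early passage, Frzb -0.40 at early passage, -0.13 pooled and 0.54 in the interaction, and Sfrp4 0.86 in the interaction. Quantile normalization gave Sfrp4 0.15 in the interaction. Flagged spots kept gave Wif1 0.25 at late passage. Without slide 1, Dkk1 was -0.55 in Dunn and -0.35 at early passage, Wif1 -0.0623 in LM8, Dkk3 -0.10 at late passage and Frzb 0.15 in the interaction.

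Leaving out 1 array gave 0 to 1 antagonists passing in late versus early LM8, 0 to 4 in LM8 versus Dunn at early and 0 to 2 at late passage. At the level of the methods it gave 0 to 2 in Dunn, 1 to 2 in LM8 and 1 to 2 in the interaction. Values that turned sign ranged from -0.31 to 0.42 (Dkk1, early passage), -0.31 to 0.41 (Dkk1, Dunn), -0.0111 to 0.298 (Dkk3, late passage), -0.13 to 0.13 (Dkk3, LM8), -0.00612 to 0.680 (Wif1, LM8), -0.51 to 0.21 (Frzb, interaction) and -0.41 to 0.53 (Sfrp4, interaction). Of the values of single antagonists under the other settings, 348 kept their direction and their side of the threshold. Another 27 turned sign, 27 came to pass and 12 ceased to pass. With 1 array left out, 241 kept both, 17 turned sign, 4 came to pass and 20 ceased to pass. Most values had not passed in the main fit, so keeping their side of the threshold says little of how firm they are.

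The share of higher probes among those passing moved with the scaling. Pooled over passages it was 12.1%, against 31.3% with quantile normalization, 52.8% with scaling on bright probes, 6.01% with normexp and 94.6% without scaling. At early passage it was 25.0%, against 92.3% without scaling. Probes passing numbered 1516 at early and 1153 at late passage, and 376 and 113 with the replicate block. Signals near background limit what can be said of Frzb in Dunn, for which the data give only a bound, and of Sfrp1, Sfrp5 and Dkk2.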
